A study of Homo sapiens with 60 samples.

Results

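The transcripts described here are those of the human mitochondrial genome in SW1783 cells, an established human astrocytoma line. Members were taken as every row of the gene table whose Ensembl identifier maps to a symbol that begins with MT-, which gave 37 of 60675 identifiers: 13 protein genes, 2 ribosomal RNA genes and 22 transfer RNA genes. The choice used the names and no measured value. Cells were grown in Leibovitz's L-15 medium with serum and treated for 24 h, and polyadenylated RNA was sequenced in 60 libraries, 3 for each of 20 groups. The vehicle group received DMSO, at 0.1% by the sample labels and at 2% by the series text, which are not reconciled here. The positive control received wortmannin at 10 µM, an inhibitor of phosphoinositide 3-kinases, and the remaining groups received water extracts of 6 medicinal plants. Liriopis seu Ophiopogonis Tuber, Schisandrae Fructus, Longan Arillus, Zizyphi Semen and Aucklandiae Radix were each given at 500 (high), 100 (medium) and 20 (low) µg/mL, and Polygalae Radix at 250, 50 and 10 µg/mL. The plants are called Liriopis, Schisandrae, Longan, Zizyphi, Aucklandiae and Polygalae below. The labels number 3 replicates per group without saying that they were separate cultures, so p-values measure the spread between these libraries, which may be technical.

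The mitochondrial genome is a small circular DNA present in many copies per cell. It encodes core subunits of respiratory complexes I, III and IV and of the ATP synthase (complex V), the 2 ribosomal RNAs of the mitochondrial ribosome and the transfer RNAs that it uses. Each strand is transcribed as a long precursor by the polymerase POLRMT with TFAM and TFB2M. Transfer RNAs lie between most of the other genes, and their excision releases the messenger and ribosomal RNAs. Most of these are then polyadenylated, and they are degraded at different rates. Astrocytic cells rely on glycolysis as well as on this respiratory chain.

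Library totals ran from 9.34 to 35.35 M expected counts (M, 1e6 counts), with a median of 25.71 M. Liriopis high replicate 1 stands apart from the other libraries, and results that use the high dose of Liriopis are given with and without it. Library names place the vehicle, wortmannin and the plants (Liriopis with Schisandrae, Longan with Zizyphi, Polygalae with Aucklandiae) in separate sets, so the treatment and the set cannot be told apart in comparisons with vehicle, whereas high against low doses and the plant pairs lie within a set. Of 8 astrocyte markers 3 averaged 1 CPM (counts in a library scaled to 1e6) or more, led by VIM at 4583 CPM, while ALDH1L1, AQP4 and S100B, which define mature astrocytes, averaged under 0.1 CPM. GFAP averaged 0.131 CPM, and VIM makes up most of the summed astrocyte markers given below (median 5002 CPM). Of 5 epithelial markers EPCAM and CDH1 averaged under 0.1 CPM and KRT19 0.301 CPM, while the keratins KRT18 and KRT8 averaged 117 and 16.1 CPM.

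Neighbouring mitochondrial genes can share bases, which bears on how a read is assigned. The pair MT-ATP8 and MT-ATP6, both subunits of the ATP synthase, overlaps by 46 bases at chrM:8527-8572, and the pair MT-ND4L and MT-ND4, both subunits of complex I, overlaps by 7 bases at chrM:10760-10766 (GRCh38, plus strand). The ends and starts of these genes are given from the GENCODE 29 transcripts as windows of 60 bases, 5′ to 3′, with the shared bases in capitals.
MT-ATP8 end: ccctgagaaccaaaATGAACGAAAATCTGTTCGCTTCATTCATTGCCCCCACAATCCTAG
MT-ATP6 start: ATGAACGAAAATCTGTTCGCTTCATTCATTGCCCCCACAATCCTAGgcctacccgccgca
MT-ND4L end: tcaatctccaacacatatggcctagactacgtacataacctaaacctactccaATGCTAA
MT-ND4 start: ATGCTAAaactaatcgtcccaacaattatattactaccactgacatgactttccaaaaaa
A read wholly inside the capitals would fit both genes of a pair equally, but reads of 100 bases at full length are longer than either overlap. How the authors' estimation assigned reads that cross an overlap was not tested. MT-ATP8 is 207 bases long in all.

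All 37 genes were measured, and 17 passed the filter on low counts: the 13 protein genes, both ribosomal RNAs, MT-TQ and MT-TA. The other 20 transfer RNAs did not pass and were not tested. Over the 60 libraries all mitochondrial genes together took 7.79% to 13.4% of counts, with a median of 9.97%. The 13 protein genes took 6.60% to 11.6% (median 8.73%), the 2 ribosomal RNAs 0.843% to 1.73% (median 1.23%), and the transfer RNAs 15 to 73 expected counts per library. Libraries were enriched for polyadenylated RNA, so the share of ribosomal RNA is not its share in the cell.

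Per kilobase of transcript, and averaged over the 60 libraries as CPM of the library total, 2 subunits of complex IV (cytochrome c oxidase) were the most abundant. Lengths are the full annotated ones without allowance for read length, so the shortest genes may be understated in this ranking. Counts on nuclear copies, 1081 CPM for that of MT-ATP6, are not included. MT-CO2 stood at 15970 CPM per kb and MT-CO1 at 12514, ahead of MT-ND4 of complex I at 10285 and MT-ATP6 at 10038. MT-CO3 followed at 9694, MT-RNR2, the large ribosomal RNA, at 7486, MT-ND1 at 6435, MT-ND2 at 5907, MT-CYB, the only mitochondrially encoded subunit of complex III, at 5780, and MT-ATP8 at 5485. The lowest protein genes were MT-ND4L at 4287, MT-ND3 at 3739, MT-ND5 at 2707 and MT-ND6 at 2008, and MT-RNR1, the small ribosomal RNA, stood at 784. MT-ND6 (chrM:14149-14673) is the only protein gene annotated on the minus strand. Its messenger RNA is not polyadenylated, and the part of the selection for polyadenylated RNA in its low level was not tested. The strand setting of the counting is not given, so reads antisense to a gene cannot be told apart from its own. Within groups the spread of a gene was mostly moderate: the median coefficient of variation over the 20 groups ran from 4.90% for MT-RNR1 and 5.15% for MT-RNR2 to 16.3% for MT-ATP8.

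Counts on transfer RNA genes lay almost wholly on genes annotated on the minus strand. These 8 genes held 2195 of 2234 expected counts summed over the 60 libraries (98.3%), and the 14 plus-strand genes held 39. MT-TA, the alanine transfer RNA, had 835 counts and MT-TQ, the glutamine transfer RNA, 748, each with counts in 60 of 60 libraries. MT-TS1 (204), MT-TY (147), MT-TN (110), MT-TE (97) and MT-TC (54) followed. No count fell on 9 transfer RNA genes, MT-TP among the minus-strand genes and 8 on the plus strand, which allows a level of up to 0.00196 CPM over the 1534.1 M counts (3 counts, counting error only). The transfer RNA genes are 59 to 75 bases long, shorter than the reads of 100 bases, and the part of this in the low counts was not tested. The sequences of the 2 that could be tested, from GENCODE 29 on the minus strand, 5′ to 3′, at chrM:4329-4400 and chrM:5587-5655, are as follows.
MT-TQ: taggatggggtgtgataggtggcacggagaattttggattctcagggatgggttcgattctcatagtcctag
MT-TA: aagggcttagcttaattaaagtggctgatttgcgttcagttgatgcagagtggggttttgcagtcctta

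**Figure D1:**
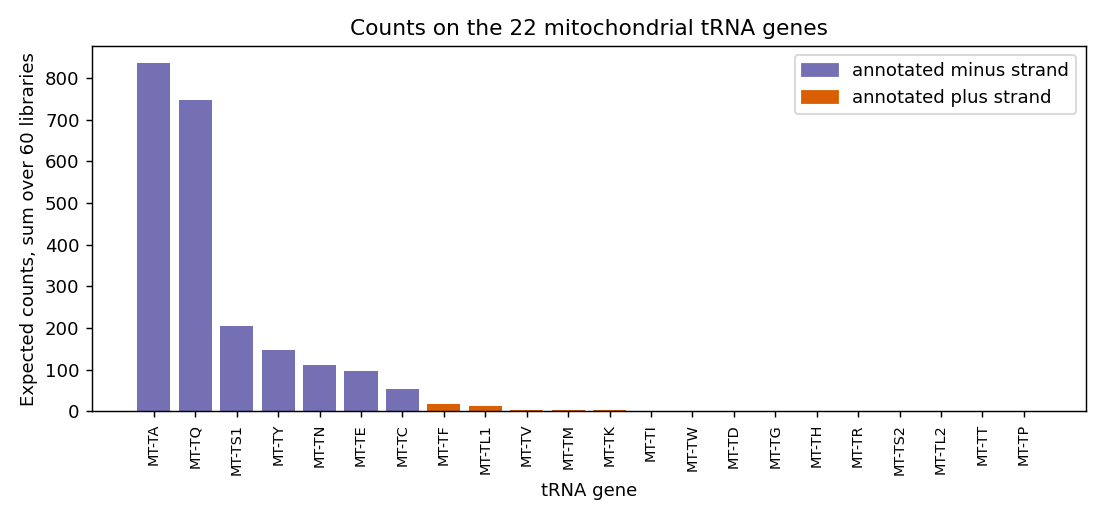
Expected counts on each of the 22 mitochondrial tRNA genes, summed over 60 libraries (vertical axis), with bar colours for the annotated strand. MT-TA (835) and MT-TQ (748) lead, and the minus-strand genes hold 98.3% of the counts.

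The share of counts on the 13 protein genes in the vehicle libraries was 9.02%, 9.08% and 9.21%. Wortmannin gave 9.52%, 10.2% and 9.62%, all above vehicle. Among the high doses, Polygalae gave 10.8%, 11.6% and 10.7%, above every vehicle library, while Schisandrae gave 8.45%, 6.76% and 7.52% and Aucklandiae 8.10%, 8.13% and 7.87%, all below vehicle. Liriopis gave 7.56%, 8.43% and 8.14%, also below vehicle with or without replicate 1. Longan (9.02%, 8.40% and 8.36%) and Zizyphi (9.79%, 10.7% and 8.73%) overlapped the vehicle range. A share below vehicle was not particular to high doses. Every library at the low doses of Liriopis, Longan and Aucklandiae also lay below every vehicle library. The same held at the medium doses of Liriopis and Schisandrae, but at no other medium or low dose. Mean shares were 7.49% at low and 8.04% at high dose in Liriopis, and 7.91% and 8.03% in Aucklandiae. These shares carry no test, since they sum the members. In bulk RNA a lower share of a transcript class cannot be told apart from fewer cells of a type or less RNA per cell.

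Against their own low dose, the plants differed in this share as follows. Polygalae was higher by 2.81 percentage points (11.04% ± 0.523 against 8.23% ± 1.52, SD, n = 3 each), and its lowest high-dose library lay above the highest low-dose library. At the other 5 plants the high and low libraries overlapped, with differences from -1.13 points (Schisandrae) to 0.556 (Liriopis; 0.795 without high replicate 1). Leaving out 1 library at a time moved these differences widely, from -1.84 to -0.453 points in Schisandrae, 0.265 to 1.04 in Liriopis, 0.159 to 0.828 in Longan, -0.141 to 1.00 in Zizyphi and -0.285 to 0.420 in Aucklandiae, so that the last 2 changed sign. Polygalae stayed between 1.99 and 3.49. The vehicle libraries lay much closer together (SD 0.0951 points) than most groups.

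**Figure D2:**
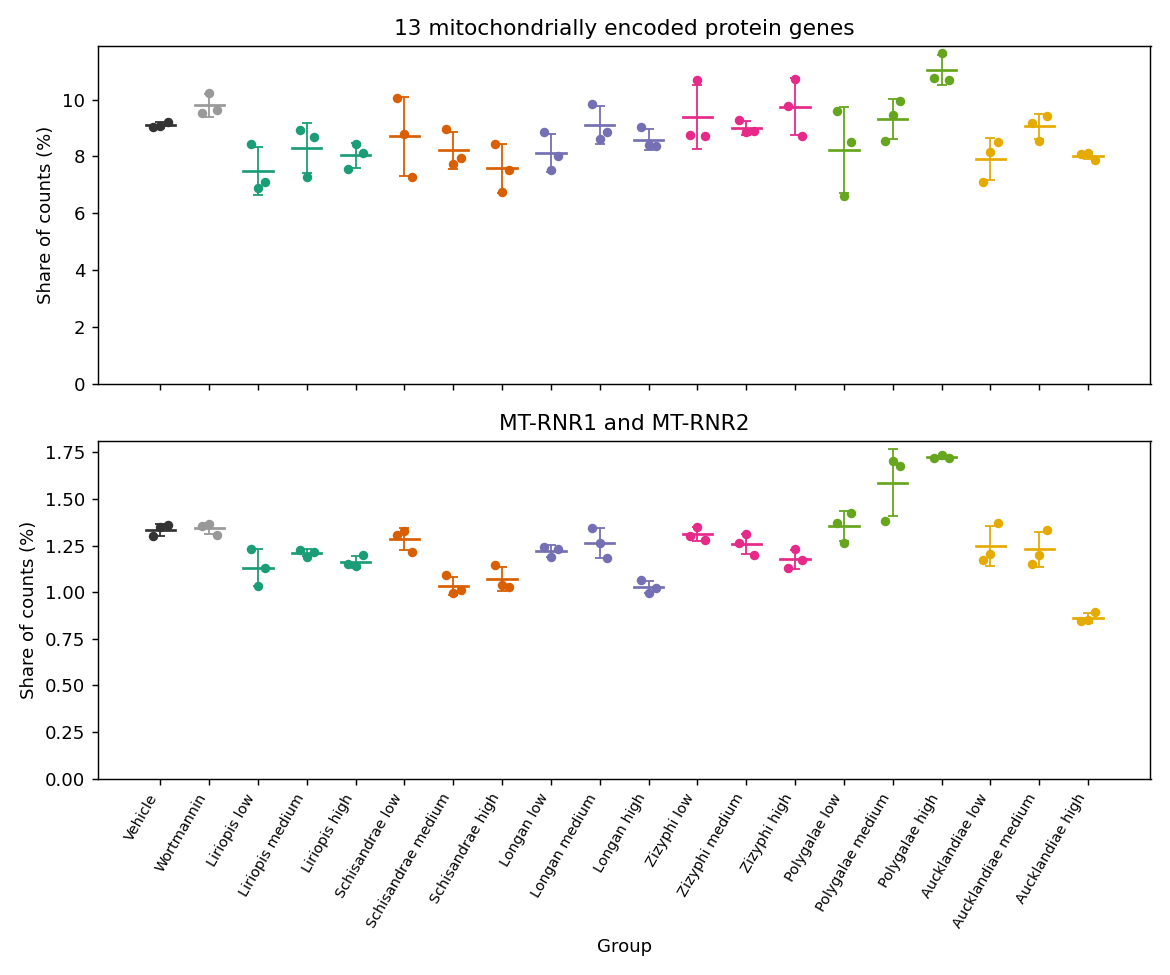
Share of expected counts in percent on the 13 protein genes (top) and on MT-RNR1 plus MT-RNR2 (bottom) for the 20 groups; points are libraries, horizontal lines the means of 3 and bars the SD. Polygalae high has the highest group mean in both panels, and the ribosomal RNA share of Aucklandiae high (0.843% to 0.894%) lies below all other libraries.

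The comparison of Schisandrae at 500 µg/mL with vehicle and with its 20 µg/mL dose gave changes that differed between genes along the genome. Of the 15 protein and ribosomal RNA genes, 8 fell against vehicle and none rose (edgeR's quasi-likelihood test, Benjamini-Hochberg adjusted p under 0.05). Of the 17792 genes tested 50.9% were called in that comparison, 25.6% lower and 25.3% higher, so the members' count is to be read against a large background. Against the low dose 5 of the 15 fell and none rose, where 24.8% of all genes tested fell. The median change of the 13 protein genes was -0.31 on the log2 scale against vehicle and -0.25 against low dose, beside 0 and 0.004 over all genes.

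The first complex I genes along the plus strand, MT-ND1 (ENSG00000198888, chrM:3307-4262) and MT-ND2 (ENSG00000198763, chrM:4470-5511), fell furthest among the protein genes. MT-ND1 stood at 4627, 3659 and 4064 TMM-scaled CPM in the high-dose libraries, 7382, 6191 and 4976 in the low-dose libraries and 6552, 6404 and 7086 in vehicle. No high-dose library overlapped either group, and the medium-dose libraries, at 6468, 5147 and 5384 CPM, lay above all of them. The log2 fold change was -0.70 ± 0.15 (SE) against vehicle (edgeR adjusted p = 9.5e-05) and -0.59 ± 0.15 against low dose (adjusted p = 0.00085). MT-ND2 stood at 4736, 3490 and 3926 CPM at high dose, 7924, 6195 and 4816 at low dose and 6403, 6262 and 6696 in vehicle. Its groups did not overlap either, though the lowest low-dose library came close to the highest high-dose library. Its log2 fold changes were -0.67 against vehicle (edgeR adjusted p = 0.00016) and -0.64 against low dose (adjusted p = 0.00031).

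The other complex I genes behaved differently. MT-ND4 (ENSG00000198886, chrM:10760-12137) stood at 17732, 13190 and 14093 CPM at high dose and 13951, 14437 and 14946 in vehicle, which overlap, with a log2 fold change of 0.05 ± 0.14 that did not pass the test. MT-ND4L (0.03), MT-ND3 (-0.06), MT-ND5 (-0.18) and MT-ND6 (-0.16) did not pass against vehicle either. The share of the 13 protein genes taken by MT-ND4 was 19.2% ± 0.864 at high dose and 15.5% ± 0.344 in vehicle, while MT-ND1 took 5.28% ± 0.0530 and 7.19% ± 0.326.

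For complex IV, MT-CO1, the catalytic subunit, stood at 19164, 15760 and 17829 CPM at high dose and 21733, 21702 and 21754 in vehicle, without overlap. It fell by 0.31 on the log2 scale against vehicle (edgeR adjusted p = 0.022) and MT-CO3 by 0.34 (adjusted p = 0.015), whereas MT-CO2 changed by -0.05 ± 0.14 and did not pass. MT-CYB of complex III fell by 0.40 (adjusted p = 0.0076). Of the ATP synthase genes MT-ATP6 fell by 0.41 against vehicle (adjusted p = 0.0087) and by 0.38 against low dose (adjusted p = 0.016), and MT-ATP8, at -0.36 in each, did not pass (adjusted p = 0.095 and 0.099). Schisandrae high replicate 2 had the lowest protein-gene share of its group. Without it the calls of MT-CO1, MT-CO3, MT-CYB and MT-ATP6 against vehicle and that of MT-ATP6 against low dose ended. Then 4 of the 15 genes stayed called against vehicle: MT-ND1, MT-ND2, MT-RNR1 and MT-RNR2.

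MT-RNR1 (ENSG00000211459, chrM:648-1601) stood at 523.8, 528.5 and 566.7 CPM in the high-dose libraries of Schisandrae, 704.4, 764.5 and 748.0 at low dose and 765.2, 759.8 and 721.6 in vehicle. The high-dose libraries lay below all others of these groups, with log2 fold changes of -0.47 (edgeR adjusted p = 0.0021) and -0.45 (adjusted p = 0.0031). MT-RNR2 (ENSG00000210082, chrM:1671-3229) fell by 0.30 against vehicle (adjusted p = 0.0011) and by 0.22 against low dose (adjusted p = 0.014), and the latter call ended without any of 4 libraries in turn (Schisandrae high replicates 2 and 3, Schisandrae low replicates 1 and 2). MT-TQ, on the minus strand between MT-ND1 and MT-ND2, was called lower against vehicle (log2 fold change -1.26, adjusted p = 0.039) on 3 to 8 counts per high-dose library and 13 to 21 per vehicle library, and leaving out any of 3 libraries ended that call. MT-TA had 12 to 20 counts at high dose and 9 to 15 in vehicle.

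**Figure D3:**
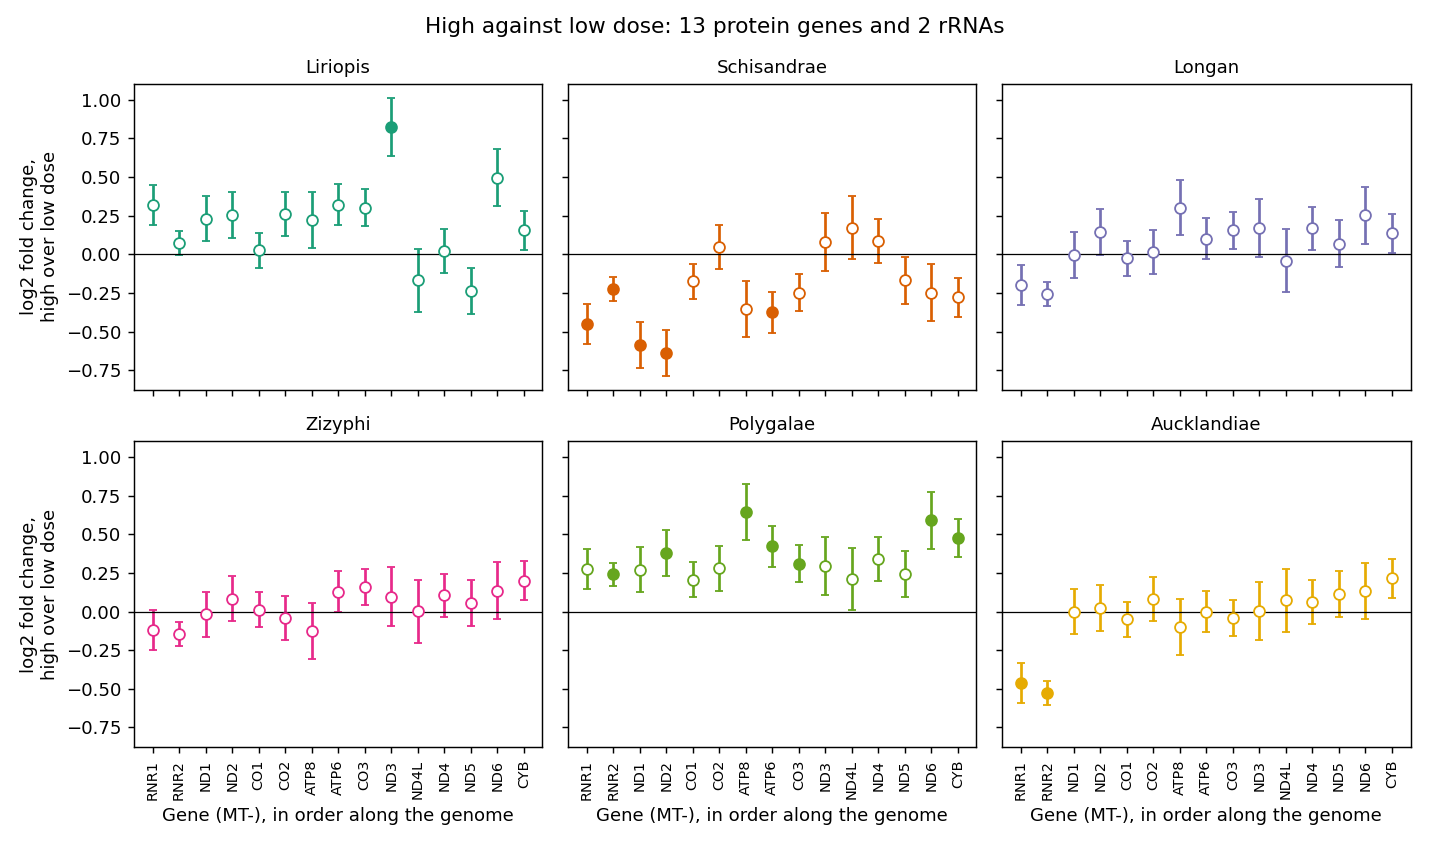
Log2 fold change of the high over the low dose for the 13 protein genes and 2 ribosomal RNAs, in their order along the genome, for each plant; bars are standard errors and filled points have an adjusted p under 0.05. In Schisandrae MT-ND1 (-0.59), MT-ND2 (-0.64) and the ribosomal RNAs are lower while MT-ND4 (0.09) is not, in Aucklandiae only the ribosomal RNAs are called, and in Polygalae all points lie above 0.

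The uneven pattern is seen within single libraries, where scaling between libraries has no part. This ratio was chosen after the fold changes were seen. Counts on MT-ND1 and MT-ND2 per 100 counts on MT-ND4 were 52.8, 54.2 and 56.7 in Schisandrae high. They were 84.8, 80.7 and 82.7 at medium dose, 91.2, 88.5 and 84.7 at low dose and 92.9, 87.7 and 92.2 in vehicle. Every other library of the series lay between 76.6 (Zizyphi high replicate 3) and 97.3 (Polygalae medium replicate 2), apart from Liriopis high replicate 1 at 140. Such a ratio shows unequal change and not which of the genes changed.

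**Figure D4:**
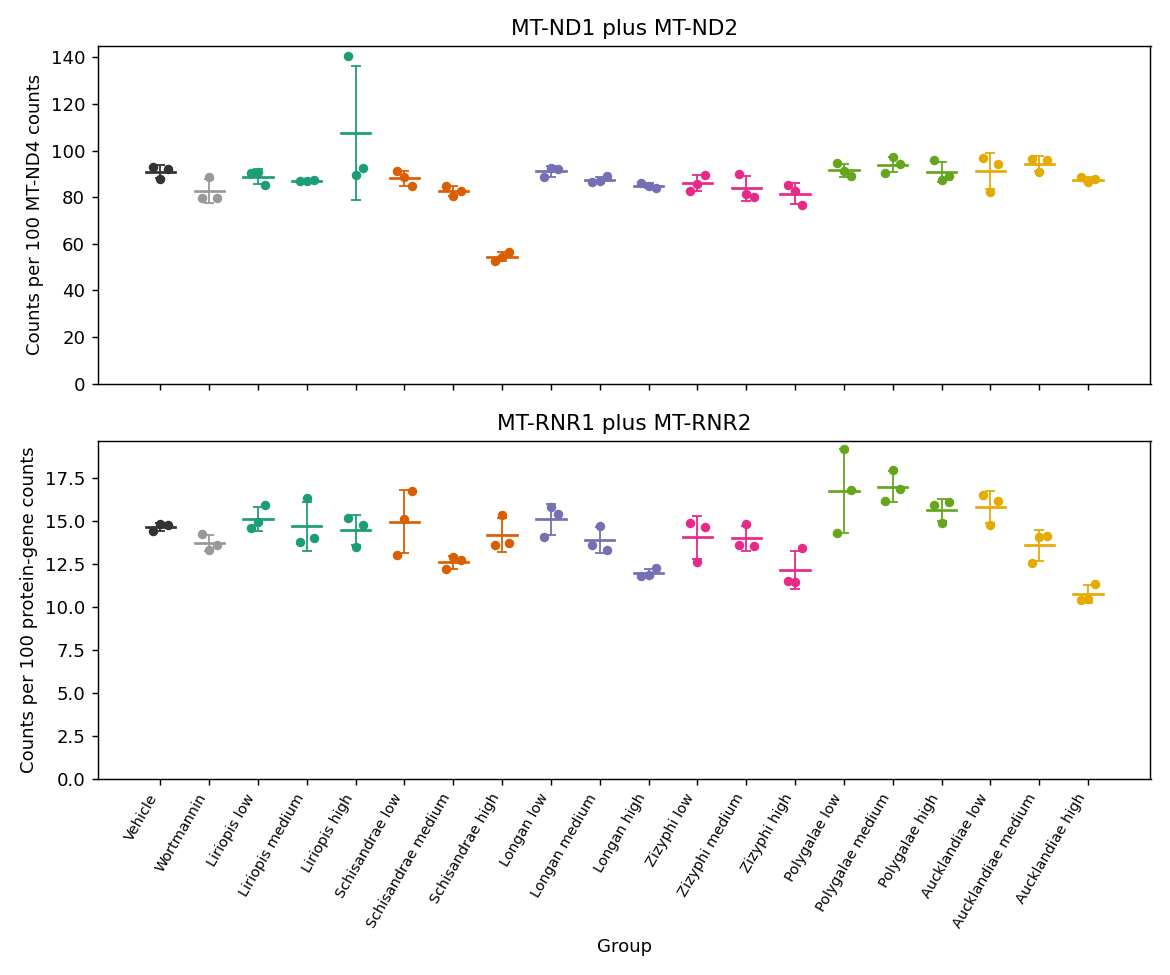
Ratios within libraries for the 20 groups: counts on MT-ND1 plus MT-ND2 per 100 MT-ND4 counts (top) and counts on the 2 ribosomal RNAs per 100 counts on the 13 protein genes (bottom); points are libraries, lines means of 3, bars SD. Schisandrae high (52.8 to 56.7) and Liriopis high replicate 1 (140) stand apart at the top, Aucklandiae high (10.4 to 11.4) is lowest at the bottom.

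Other gene groups moved in the same Schisandrae libraries. Of 4 astrocyte markers tested 1 fell against low dose (SLC1A3), and the list's summed level was 4859 to 5112 CPM at high and 4725 to 5004 CPM at low dose. Of 4 neuron markers tested 3 fell and 1 rose, with a summed level of 76.8 to 84.9 CPM against 155 to 166 CPM, and GAP43 and STMN2 under 0.1 CPM on average. Of 2 leukocyte markers tested PTPRC fell and CD68 rose, with a summed level of 205 to 238 CPM against 172 to 203 CPM. Of 3 epithelial markers tested 1 fell (KRT18), with a summed level of 62.4 to 66.4 CPM against 139 to 153 CPM. Of 3 endothelial markers tested 1 rose (TEK), with a summed level of 38.3 to 40.7 CPM against 35.9 to 37.7 CPM. Their part in the mitochondrial changes was not tested.

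In Aucklandiae at 500 µg/mL the ribosomal RNAs were lower, and 1 of the 13 messenger RNAs passed the test against vehicle and none against low dose. Against vehicle none of the 13 protein-gene fold changes lay above 0 (median -0.16, beside -0.003 over all genes). That was not particular to this dose. None lay above 0 at the low doses of Aucklandiae (median -0.23), Liriopis (-0.31), Longan (-0.20) and Polygalae (-0.20). The same held at the medium doses of Liriopis (-0.18) and Schisandrae (-0.19). Of the 15 genes 3 fell against vehicle and none rose, where 6.69% of all genes tested fell and 6.54% rose, and 2 of the 15 fell against the 20 µg/mL dose, where 5.3% of all genes tested fell. MT-RNR2 stood at 7849, 8023 and 8438 CPM at high dose, 11027, 11408 and 12935 at medium dose, 10721, 11290 and 13065 at low dose and 12450, 13039 and 13164 in vehicle. The high-dose libraries were the lowest 3 of these groups, with log2 fold changes of -0.67 ± 0.08 against vehicle (edgeR adjusted p = 4.8e-09) and -0.53 ± 0.08 against low dose (adjusted p = 1.2e-06), and no single library's removal ended either call. MT-RNR1 stood at 585.3, 531.8 and 574.6 CPM at high dose and 823.9, 739.0 and 768.4 at low dose, again without overlap (log2 fold change -0.46, adjusted p = 0.013). The MT-RNR1 call against low dose ended without Aucklandiae low replicate 1 or Aucklandiae high replicate 2. Over 7 fits that each left out 1 library, among them Liriopis high replicate 1, its edgeR adjusted p ran from 2.2e-07 to 0.069.

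Other genes differed between the same Aucklandiae libraries. Against low dose 2 of 3 epithelial markers tested fell (KRT8 by 0.46 and KRT18 by 0.45), with a summed level of 101 to 105 CPM against 134 to 145 CPM, and 1 of 2 leukocyte markers tested fell (PTPRC by 0.98), with a summed level of 189 to 215 CPM against 157 to 193 CPM. None of the astrocyte (4 tested), neuron (4) or endothelial (3) markers was called by edgeR, with summed levels of 5150 to 5257 CPM against 4653 to 4963 CPM, 157 to 164 against 158 to 165 and 41.6 to 45.7 against 32.7 to 38.7. NEAT1 fell by 0.37, and MALAT1 and NEAT1 summed to 1044 to 1269 CPM against 1237 to 1558 CPM. Their part in the ribosomal RNA changes was not tested.

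The protein genes of Aucklandiae had a median log2 fold change of 0.02 between high and low dose, ranging from -0.10 to 0.22, and none passed. Against vehicle MT-CO1, at 17001, 17424 and 17022 CPM at high dose, fell by 0.34 (edgeR adjusted p = 0.036), a call that ended whichever of the 6 libraries was left out. The MT-RNR1 call against vehicle (-0.41, adjusted p = 0.027) ended without any of 5 of the 6, Vehicle replicate 3 being the exception. Liriopis high replicate 1, at 1421 CPM of MT-RNR1, is in neither group but enters the shared estimate of the spread. Over 7 fits that each left out 1 library, that one among them, the edgeR adjusted p ran from 2.4e-06 to 0.11. Within libraries the ribosomal RNAs had 10.4, 10.4 and 11.4 counts per 100 protein-gene counts at the high dose of Aucklandiae. They had 12.5, 14.1 and 14.1 at its medium dose, 16.5, 14.8 and 16.2 at its low dose and 14.4, 14.8 and 14.8 in vehicle. Over all 60 libraries the median was 14.3.

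MT-RNR2 was also the gene called at doses that changed few genes. At 100 µg/mL Schisandrae it stood at 10407, 9275 and 9375 CPM, below vehicle in every library (log2 fold change -0.41, edgeR adjusted p = 0.0018), the only one of the 15 genes called, where 0.562% of all genes tested fell and 0.461% rose. At 500 µg/mL Longan it stood at 10032, 9217 and 9518 CPM (-0.43, adjusted p = 0.0014), again the only one of the 15, where 0.545% of all genes tested fell. Neither call ended when a library of its groups was left out. Against Longan's own low dose (11862, 10980 and 11496 CPM) the libraries did not overlap, but no mitochondrial gene passed the test, where 0.247% of all genes tested were called and 1 of the 15 had an unadjusted p under 0.05 in edgeR. At 100 µg/mL Longan no member was called either (0.0281% of all genes called, each of them lower).

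Polygalae at 250 µg/mL had the highest levels of both ribosomal RNAs and of several messenger RNAs. Against its 10 µg/mL dose 7 of the 15 genes rose and none fell, where 17.9% of all genes tested rose, and the fold changes of all 13 protein genes lay above 0 (0.21 to 0.65, median 0.31; 0.011 over all genes). Against vehicle 2 of the 15 rose, the ribosomal RNAs, where 23.1% of all genes tested rose and 22.9% fell. At 50 µg/mL none of the 15 was called against vehicle, where 30.1% of all genes tested were called and 1 of the 15 had an unadjusted p under 0.05 in edgeR.

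MT-RNR2 stood at 14970, 14839 and 14442 CPM at the high dose of Polygalae, 12551, 15575 and 15173 at medium, 12894, 11331 and 13238 at low dose and 12450, 13039 and 13164 in vehicle. High-dose libraries lay above those of low dose and vehicle (log2 fold changes 0.24 and 0.20, edgeR adjusted p = 0.011 and 0.034). MT-RNR1 stood at 883.6, 950.6 and 978.3 CPM at high dose, 725.7, 852.1 and 933.5 at medium and 820.0, 723.4 and 778.7 at low dose. Its high-dose libraries lay above vehicle (0.32, adjusted p = 0.037) and above low dose, where the change of 0.28 did not pass (adjusted p = 0.093). The shared estimate of the spread includes Liriopis high replicate 1 (1421 CPM of MT-RNR1), which belongs to none of these groups. MT-CYB stood at 8159, 8551 and 8579 CPM at high dose and 7207, 4608 and 6366 at low dose, without overlap (0.48, adjusted p = 0.0022). Of the ATP synthase genes MT-ATP8 stood at 1888, 1400 and 1212 CPM against 1154, 703.1 and 1020 (0.65, adjusted p = 0.0036), and MT-ATP6 at 8261, 8929 and 7782 against 7561, 4815 and 6265 (0.42, adjusted p = 0.0097), each without overlap. MT-ND6 (0.59, adjusted p = 0.0089), MT-ND2 (0.38, adjusted p = 0.040) and MT-CO3 (0.31, adjusted p = 0.036) were also called higher, but their high-dose and low-dose libraries overlapped.

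All Polygalae calls against low dose depend on 1 library, and several depend on others as well. Polygalae low replicate 2 has the lowest protein-gene share of all 60 (6.60%), and without it 0 of the 15 genes were called against low dose by edgeR, 3 having an unadjusted p under 0.05, while 5664 of all genes were still called. Without Polygalae high replicate 2 the calls of MT-ND6, MT-ND2, MT-ATP6 and MT-CO3 against low dose ended too. Those of MT-ATP8 and MT-ND2 ended without Polygalae high replicate 1, and those of MT-ND2 and MT-CO3 without replicate 3 of either dose. The ribosomal RNA calls against vehicle ended without any of 4 of the 6 libraries for MT-RNR2 and any of 5 for MT-RNR1, and without Vehicle replicate 1, Vehicle replicate 2 or Polygalae high replicate 2 both ended. For MT-RNR1, 7 fits that each left out 1 library, among them Liriopis high replicate 1, gave edgeR adjusted p from 2.1e-05 to 0.10. Polygalae high was the group with the largest scaling factors (TMM factors 1.08 to 1.12). Under library totals alone the median of all genes against vehicle shifted by 0.17 on the log2 scale and 9 of the 15 genes were called higher there. The nuclear-retained RNAs MALAT1 and NEAT1 summed to 1645 to 2381 CPM in Polygalae high and 1102 to 1312 in vehicle, and the summed astrocyte markers to 1959 to 2185 CPM against 4996 to 5063, 2 of the 4 tested being lower. Most of that astrocyte sum is VIM, at 1873 ± 116 CPM in Polygalae high and 4221 ± 99.3 in Polygalae low. Summed epithelial markers were 41.5 to 43.8 CPM against 132 to 149 in vehicle, with 3 of 3 tested lower. Summed neuron markers were 69.1 to 75.0 CPM against 155 to 159 in vehicle, with 3 of 4 tested lower and 1 higher. The part of these in the mitochondrial values was not tested.

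Liriopis at 500 µg/mL had 5 of the 15 genes called against vehicle, where 34% of all genes tested were called: MT-CO1, MT-ND4L, MT-ND5 and MT-RNR2 lower and MT-ND3 higher. Against 20 µg/mL 1 was called, MT-ND3 higher, where 11.8% of all genes tested rose. Without replicate 1 of the high dose edgeR called none of the 15 in either comparison, with 4 and 1 at an unadjusted p under 0.05, and 1 and 0 of all genes. The MT-ND3 call against low dose also ended without Liriopis low replicate 2, and the calls against vehicle of MT-CO1, MT-ND5, MT-RNR2 and MT-ND3 also ended without Vehicle replicate 3. Liriopis high replicate 1 had 3096 CPM of MT-ND3 where the other high-dose libraries had 1290 and 1241, 300.6 of MT-ND4L (1262 and 1101), 1983 of MT-ND5 (4911 and 4092) and 1421 of MT-RNR1 (669.6 and 677.8). MT-ND6 took 2.24% of its protein-gene counts, beside a median of 1.16% over 60 libraries. It also had the highest summed MALAT1 and NEAT1 (4118 CPM, median 1422) and the highest summed nuclear-encoded respiratory chain genes (8582 CPM, median 3931). Without it MT-ND3 changed against vehicle by -0.06 (edgeR adjusted p = 0.95) in place of 0.50.

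Wortmannin left all 15 genes uncalled against vehicle, where 12% of all genes tested were called, 5.45% higher and 6.52% lower, and none had an unadjusted p under 0.05 in edgeR. The largest protein-gene change was 0.23, and 12 of 13 fold changes lay above 0. Zizyphi was without a call at every dose, including 500 µg/mL, where 0.607% of all genes tested were called and 1 of the 15 had an unadjusted p under 0.05. No member was called at the low dose of any plant. The share of all genes called there was largest for Polygalae, at 6.46% (3.01% higher and 3.46% lower), where 1 of the 15 had an unadjusted p under 0.05. At 20 µg/mL Liriopis, where 0.00562% of all genes tested were called, the 13 protein genes had fold changes between -0.53 and -0.17 against vehicle and 8 of the 15 had an unadjusted p under 0.05. DESeq2 gave no call of the 15 in these comparisons either.

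Within the set that holds both plants, the direct comparison put Polygalae at 250 µg/mL beside Aucklandiae at 500 µg/mL, so the doses differ. Of the 15 genes 8 were higher in Polygalae and none lower, where 23% of all genes tested were higher. MT-RNR2 differed by 0.86 ± 0.08 (14750 ± 275 against 8103 ± 303 CPM, edgeR adjusted p = 4e-13) and MT-RNR1 by 0.73 (937 ± 48.7 against 564 ± 28.3 CPM, adjusted p = 6.3e-06). MT-ATP8, MT-ATP6, MT-CO3, MT-ND2, MT-CO1 and MT-CYB were higher by 0.32 to 0.69. At 500 µg/mL each, 7 of the 15 were lower and 1 higher in Schisandrae than in Liriopis, where 31.9% of all genes tested were lower and 27.7% higher. Without Liriopis high replicate 1 the calls that stayed were MT-ND1 (-0.50), MT-ND2 (-0.67) and MT-RNR1 (-0.32), lower, and MT-ND4L (0.31), higher. Zizyphi and Longan at 500 µg/mL gave no call, where 1.01% of all genes tested were called, while 4 of the 15 had an unadjusted p under 0.05.

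Nuclear copies of mitochondrial DNA can take reads from these genes. Of 404 annotated copies 4 averaged 1 CPM or more, all on chromosome 1. MTATP6P1 (chr1:633696-634376) averaged 1081 CPM beside 6836 for MT-ATP6, from which it differs at 10 of 681 bases. MTND2P28 averaged 197 CPM (6155 for MT-ND2), MTCO1P12 58.8 (19296 for MT-CO1) and MTND1P23 1.67 (6152 for MT-ND1), with identities of 98.4%, 98.7% and 98.1% over the aligned bases. A window of 80 bases of MT-ATP6 (chrM:8647-8726) and its counterpart on the plus strand at chr1:633816-633895, from GENCODE 29 on GRCh38, holds 4 of the 10 differences, in capitals: C129T, A151C, A175G and A192G, counted from the first base of MT-ATP6, whose base comes first.
MT-ATP6 window: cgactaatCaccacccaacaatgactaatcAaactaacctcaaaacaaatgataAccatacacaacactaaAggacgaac
MTATP6P1 window: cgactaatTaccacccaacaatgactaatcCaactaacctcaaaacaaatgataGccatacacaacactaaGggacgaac

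The copies were tested in the same fits as their mitochondrial counterparts. MTATP6P1 stood at 1331 ± 102 CPM in Polygalae high and 1028 ± 182 in Polygalae low (log2 fold change 0.37, edgeR adjusted p = 0.036), and MTND2P28 at 134 ± 21.3 CPM in Schisandrae high and 221 ± 17.7 in vehicle (-0.72, adjusted p = 0.0019). With the copies' counts added to their mitochondrial genes, every one of the 65 called results kept its direction and its call. Whether the reads on the copies came from nuclear or mitochondrial RNA was not tested.

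Nuclear genes for mitochondrial transcription and replication, a list of 15, were tested in the same fits. Beside the counts of this and the following lists stand the shares of all genes called between high and low dose, which were 25% higher and 24.8% lower in Schisandrae, 17.9% and 18.3% in Polygalae, and 5.32% and 5.3% in Aucklandiae. In Schisandrae high against low 6 rose and 4 fell (median 0.03). POLRMT, the mitochondrial RNA polymerase, rose from 43.5 ± 2.90 to 82.1 ± 2.07 CPM (0.92, edgeR adjusted p = 2e-16), POLG, the replicative DNA polymerase, from 33.0 ± 2.75 to 84.7 ± 2.86 CPM (1.36, adjusted p = 3.1e-19), and TFB1M, a methyltransferase of the small ribosomal RNA, from 8.14 ± 0.189 to 21.9 ± 0.462 CPM (1.43, adjusted p = 4.1e-15). TFAM, which packages mitochondrial DNA and activates its promoters, fell by 0.29 (adjusted p = 0.00020). In Polygalae high against low 7 rose and 1 fell (median 0.10). TWNK, the replicative helicase, rose by 0.74, MTERF1, a termination factor, by 0.47 and TFB2M, the initiation factor, by 0.35 (adjusted p = 3e-11, 6.7e-06 and 0.00096). In Aucklandiae 1 of 15 rose, TFB1M by 0.36 (adjusted p = 0.034). Liriopis high replicate 1 belongs to none of these groups but enters the shared estimate of the spread, and leaving it out gave 6 higher and 6 lower in Schisandrae, 7 and 1 in Polygalae and 3 and 1 in Aucklandiae.

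Among 19 genes of mitochondrial RNA processing and stability, 5 rose and 1 fell in Schisandrae high against low (median 0.02; 25% of all genes rose) and 8 rose and 3 fell in Polygalae (median -0.0006), while 2 rose in Aucklandiae (median 0.06; 5 without Liriopis high replicate 1 in the fit). SUPV3L1, the helicase of the mitochondrial RNA degradosome, rose in Schisandrae (0.45, edgeR adjusted p = 4.2e-10) and in Polygalae (0.43, adjusted p = 2.6e-09). PNPT1, its partner exoribonuclease, rose in Schisandrae by 0.25 (adjusted p = 6.6e-05), and FASTKD5 and the poly(A) polymerase MTPAP rose in Polygalae by 0.64 and 0.38 (adjusted p = 9.9e-10 and 3.6e-07). LRPPRC, which stabilises mitochondrial messenger RNAs, fell in Polygalae by 0.32 (adjusted p = 1.2e-05) and changed by 0.02 in Schisandrae, which did not pass.

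Of 7 regulators of mitochondrial gene programmes, PPARGC1A, the coactivator of mitochondrial biogenesis, moved most among those called. It fell in Schisandrae from 2.04 ± 0.0907 CPM at low to 0.324 ± 0.206 at high dose (-2.68, edgeR adjusted p = 8.9e-12) and in Aucklandiae from 2.27 ± 0.232 to 0.628 ± 0.127 (-1.83, adjusted p = 2.6e-08). In Polygalae it rose from 4.40 ± 0.666 to 8.91 ± 0.310 CPM (1.02, adjusted p = 5.5e-07). In all, 3 rose and 1 fell in Schisandrae (25% and 24.8% of all genes), 3 rose in Polygalae and 1 fell in Aucklandiae. Without Liriopis high replicate 1 in the fit 6 rose and 1 fell in Polygalae. ESRRA and GABPB1 rose in Schisandrae (0.53 and 0.26), and NRF1 and PPARGC1B rose in Polygalae (0.33 and 0.73).

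Mitochondrial chaperones and proteases, a list of 12, had 9 members higher and none lower in Schisandrae high against low (median 0.32), where 25% of all genes tested rose. HSPA9, the matrix HSP70, rose from 351 ± 10.7 to 549 ± 29.3 CPM (0.65, edgeR adjusted p = 1.7e-17), the matrix protease LONP1 by 0.63 (adjusted p = 3.5e-10) and the inner-membrane protease YME1L1 by 0.43 (adjusted p = 5.4e-11). In Polygalae 2 rose (4 without Liriopis high replicate 1 in the fit) and 3 fell, TRAP1 by 0.54, HSPD1 by 0.35 and YME1L1 by 0.31. Under wortmannin 6 of the 12 were lower than in vehicle and none higher (median -0.18; 0.008 over all genes), where 6.52% of all genes tested fell.

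The mitochondrial subunits assemble with nuclear-encoded partners, which were tested in the same fits. Of 45 nuclear genes of the respiratory chain and ATP synthase, none rose and 12 fell in Polygalae high against low (median -0.17), where 18.3% of all genes tested fell. ATP5F1A and ATP5F1B, the catalytic head of the ATP synthase whose membrane part holds MT-ATP6, fell by 0.87 and 0.71 (edgeR adjusted p = 4.1e-16 and 1.9e-14). In Schisandrae 5 rose and 5 fell (median -0.05), SDHA and UQCRC2 rising by 0.66 and 0.40, and in Aucklandiae none was called (median -0.09). In Liriopis high 37 rose against low dose and 40 against vehicle, and 0 in either without replicate 1. Without that library in the fit 25 fell in Polygalae and 4 in Aucklandiae, and 7 rose and 11 fell in Schisandrae. Of 78 mitochondrial ribosomal protein genes 14 rose and 11 fell in Schisandrae high against low (median -0.02), beside 25% and 24.8% of all genes, 9 rose and 4 fell in Polygalae (median 0.02), beside 17.9% and 18.3%, and in Aucklandiae, where the ribosomal RNAs were lower, MRPL42 fell by 0.24 (adjusted p = 0.021) and no other was called. Without Liriopis high replicate 1 in the fit these counts were 22 and 20, 19 and 10, and 2 higher and 4 lower.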

How the data were processed

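Per the labels' protocols, messenger RNA libraries were made from total RNA with a directional MGIEasy kit and sequenced as paired reads of 100 bases. The submitters' processing notes name, without roles, RSEM 1.3.3, STAR 2.7.3a, FastQC 0.11.9 and Trim Galore 0.6.5, and the builds hg38 and GRCh38. No source used here gives the annotation or strand setting. Per the series text, outlying samples with little RNA were left out. The authors deposited RSEM expected counts per Ensembl gene (11.02% of values not whole), which were rounded. Symbols came from a gene name table (56558 of 60675 identifiers matched) and coordinates from GENCODE 29.

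All 60 libraries entered one edgeR 4.0.16 quasi-likelihood fit (R 4.3.3, limma 3.58.1) with a mean per group, TMM factors and a filter at a minimum count of 10, leaving 17792 genes. Adjusted p-values are Benjamini-Hochberg over these genes within each of 31 comparisons: 19 with vehicle, 6 of high with low dose, 3 plant pairs and 3 differences of dose changes. Calls have an adjusted p under 0.05. CPM in the comparisons are TMM-scaled. The script was tested on simulated data. Alternatives included DESeq2 1.42.0, other scalings, no filter, a replicate block and each library left out. All members are named. Transfer RNAs are given by count and range, and nuclear copies from a mean of 1 CPM. For nuclear lists up to 3 called genes with the smallest p per high-against-low comparison could be named, besides TFAM and LRPPRC, which were named as textbook factors after their values were seen. Members and lists were chosen with earlier results of these data known.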

Additional observations from a re-analysis of the deposited data

Results flagged for a closer look

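The change from low to high dose differed between Schisandrae and Liriopis for 9 of the 15 protein and ribosomal RNA genes, tested as the difference of the 2 dose changes in the edgeR fit, where 23.7% of all genes tested were lower. On the log2 scale the change in Schisandrae minus that in Liriopis was -0.8183 for MT-ND1, -0.8934 for MT-ND2, -0.6957 for MT-ATP6 and -0.7722 for MT-RNR1. It was -0.5491 for MT-CO3, -0.7449 for MT-ND3, -0.745 for MT-ND6, -0.4338 for MT-CYB and -0.2981 for MT-RNR2. Without Liriopis high replicate 1 the differences of MT-ND3 (-0.18, adjusted p = 0.49) and MT-ND6 (-0.41, adjusted p = 0.16) no longer passed, and that of MT-RNR1 was -0.32 (adjusted p = 0.0058). The others were then -0.68 for MT-ND1, -0.95 for MT-ND2, -0.62 for MT-ATP6, -0.41 for MT-CO3, -0.44 for MT-CYB and -0.30 for MT-RNR2, and each still passed. The call of MT-CYB ended without any of 7 other libraries in turn (adjusted p up to 0.15) and that of MT-RNR2 without any of 5 (up to 0.097), while MT-ND1, MT-ND2, MT-ATP6, MT-CO3 and MT-RNR1 kept theirs without any of the 12.

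The dose change also differed between Polygalae and Aucklandiae, higher in Polygalae by 0.7476 for MT-ATP8, 0.7391 for MT-RNR1 and 0.7692 for MT-RNR2, where 10.4% of all genes tested were higher. The MT-ATP8 difference (adjusted p = 0.027) lost its call without any of 5 libraries in turn, while the ribosomal RNA differences kept theirs. Between Zizyphi and Longan no dose change differed among the 15 genes, where 0.225% of all genes tested were called and none of the 15 had an unadjusted p under 0.05.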

How the results depend on the processing

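Across the 65 called member results, DESeq2, RLE factors, library totals only, factors without mitochondrial genes, added nuclear copies and the replicate block changed no call. Without the filter 1 ended. Counts of the 15 genes called changed by more than 1.5 times as follows. With library totals only, Polygalae high against vehicle had 9 (2 as reported), Polygalae medium against vehicle 1 (0), Polygalae high against low 12 (7) and the Polygalae minus Aucklandiae dose change 5 (3). Without the filter, Schisandrae high against low had 8 (5) and Liriopis high against low 2 (1). DESeq2 gave 2 for the latter. Over all genes, same-numbered libraries did not deviate together (median correlation of same-numbered deviations 0.00559, and 3.51% of 570 pairs over 0.1). The protein-gene share was highest in replicate 1 at each dose of Schisandrae and Longan and at the medium and low doses of Liriopis. In Zizyphi, Polygalae and Aucklandiae the replicate with the highest share varied with the dose. Pairing within a set was not tested, since the replicate block takes the same effects in every set. The fit with the replicate block gave 2 for Liriopis high against low and moved no other count by that much. With counts on all other genes as the denominator, the protein-gene share differed from vehicle by 2.49 points in Polygalae high (1.93 of all counts) and by -1.34 in Aucklandiae high (-1.07).

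With each library left out, counts called against vehicle ran from 0 to 7 (Liriopis high), 4 to 9 (Schisandrae high), 1 to 2 (Schisandrae medium), 0 to 3 (Polygalae high), 1 to 3 (Aucklandiae high) and 0 to 1 (Liriopis low, Polygalae medium, Polygalae low). Against low dose they ran from 0 to 7 (Liriopis), 3 to 8 (Schisandrae), 0 to 11 (Polygalae) and 1 to 2 (Aucklandiae). Schisandrae against Liriopis ran from 4 to 10, Polygalae against Aucklandiae from 6 to 9, and the dose change differences from 5 to 10 and from 2 to 5. MT-ND3 ran from -0.0636 to 0.7245 in Liriopis high against vehicle and from -0.7858 to 0.0037 in Schisandrae against Liriopis, changing sign without Liriopis high replicate 1. Without that library, added after seeing the data, no gene of the 13 nuclear lists was called in Liriopis high against vehicle or low dose. Counts of 3 to 30 per library limit MT-TQ and MT-TA.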
